A study of Rattus norvegicus with 8 samples.

Results

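The epidermal growth factor (EGF) receptor and 4 of its ligands were followed in burned and unburned rat skin. The set was defined by 5 Ensembl rat gene identifiers, for the receptor Egfr (ENSRNOG00000004332) and the ligands Hbegf (ENSRNOG00000018646), Areg (ENSRNOG00000002754), Ereg (ENSRNOG00000002771) and Tgfa (ENSRNOG00000016182). All 5 were among the 26404 identifiers of the count table, and all 5 passed the filter on low counts, which left 14240 genes. The symbols came with the identifiers when the set was defined. The table carries identifiers alone, so the pairing of symbol and identifier could not be checked in it.

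Skin was taken from the dorsal side of the hind paw of anaesthetised Sprague-Dawley rats of 125 to 200 g, with no age stated in the labels. In the burn group, 4 libraries, saline at 60 °C had covered the paw for 2 min, the study's model of a deep partial-thickness burn. In the control group, also 4 libraries, the opposite paw had been immersed at the same time in room-temperature saline. The excised sites of both groups carried microdialysis probes, and the rats were under urethane (1.5 g/kg). From each site, poly(A) RNA of the whole tissue piece was sequenced. The labels do not state how long after the burn the skin was taken. Nothing in the labels ties a burned paw to the control paw of its rat or gives each library a rat of its own. The p-values below therefore reflect sample-to-sample spread that may be technical.

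The EGF receptor is a tyrosine kinase on the surface of keratinocytes, fibroblasts and other skin cells. Its ligands are made as membrane-anchored precursors, and metalloproteases of the ADAM family release them, so that transcript levels are only the first step of ligand supply. The ligand-bound receptor signals through the RAS-ERK and PI3K-AKT routes, and in skin it drives keratinocyte migration and division, most visibly when a wound closes. HB-EGF, the product of Hbegf, also binds ERBB4 and holds to heparan sulphate. Amphiregulin, from Areg, and epiregulin, from Ereg, are ligands of lower affinity that keratinocytes themselves make, and TGF-alpha, from Tgfa, is a high-affinity ligand of the same autocrine loop.

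The DNA just upstream of the start site is shown as description, and its relation to the changes in level was not tested. The promoter set used, on rat build GRCr8, held 4 of the 5 genes and had no entry for Ereg, although the RefSeq gene reference held all 5. GRCr8 is not the build named for the counts (Rnor_5.0). No measurement was placed on these coordinates. Each run is the 250 bases before the start, 5′ to 3′ on the gene's strand. The windows are chr14:95378376-95378625 on the plus strand for Egfr, chr18:28390221-28390470 on the minus strand for Hbegf, chr14:17265642-17265891 on the minus strand for Areg and chr4:120175469-120175718 on the plus strand for Tgfa. Capitals mark matches, on either strand, to any of 5 motifs, the cAMP response element (TGACGTCA), the AP-1 site (TGANTCA), a minimal heat shock element (GAANNTTC), the GC box (GGGCGG) and the TATA box (TATAAA).
Egfr: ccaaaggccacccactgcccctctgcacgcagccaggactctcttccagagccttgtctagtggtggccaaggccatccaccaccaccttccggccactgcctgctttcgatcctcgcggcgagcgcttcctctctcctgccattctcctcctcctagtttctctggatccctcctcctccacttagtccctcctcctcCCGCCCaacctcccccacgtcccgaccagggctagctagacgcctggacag
Hbegf: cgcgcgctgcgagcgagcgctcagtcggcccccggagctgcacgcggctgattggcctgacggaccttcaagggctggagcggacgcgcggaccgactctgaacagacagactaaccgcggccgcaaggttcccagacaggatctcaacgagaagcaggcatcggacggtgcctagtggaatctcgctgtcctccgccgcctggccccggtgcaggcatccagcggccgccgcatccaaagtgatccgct
Areg: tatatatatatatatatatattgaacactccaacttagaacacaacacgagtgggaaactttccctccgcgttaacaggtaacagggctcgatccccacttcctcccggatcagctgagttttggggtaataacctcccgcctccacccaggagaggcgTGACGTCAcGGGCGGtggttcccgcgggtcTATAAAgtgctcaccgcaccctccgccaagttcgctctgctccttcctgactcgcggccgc
Tgfa: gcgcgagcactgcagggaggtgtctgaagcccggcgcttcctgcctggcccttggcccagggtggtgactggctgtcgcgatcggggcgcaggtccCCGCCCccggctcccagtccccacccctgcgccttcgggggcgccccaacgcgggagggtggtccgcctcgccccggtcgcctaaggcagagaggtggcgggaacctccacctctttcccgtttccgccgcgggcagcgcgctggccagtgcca

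The Areg promoter alone of the 4 held a cAMP response element, 91 to 84 bases before the start, and a TATA box, 61 to 56 bases before it. Among all 33469 promoter windows of this length in the table, 1.59% held the first and 12.9% the second. A GC box stood in the Egfr, Areg and Tgfa windows and in 30.5% of all windows. None of the 4 windows held the AP-1 letters, found in 6.34% of all windows, or the heat shock element, found in 7.23%. None of the 5 motifs was in the Hbegf window. The letters of one motif did not overlap those of another in these windows. GC content was 63.6% for Egfr, 67.6% for Hbegf, 54.4% for Areg and 74.4% for Tgfa. These matches describe the letters and say nothing of what binds there. Areg and Ereg lie next to each other in GRCr8, with 0 annotated genes between them.

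Libraries held 13693811 to 18738652 counts in burn and 17824830 to 26837925 in control, and the ranges of the groups overlap. Burn replicate 3 stood apart from the other libraries, with 15354 genes at 1 count or more against 17322 to 17547 in the other 7 libraries. Its factor from TMM scaling (trimmed mean of M-values) was 1.20, where the other burn libraries had 0.81 to 0.89 and the controls 1.05 to 1.14. Each fitted change is therefore given with and without it. Genes were tested with edgeR's quasi-likelihood test, and a gene was called at a Benjamini-Hochberg adjusted p under 0.05 over all 14240 genes. By that rule 21.9% of genes differed between burn and control, 11.9% higher and 10.0% lower in burn, with a median log2 fold change of 0.06 over all genes. That is 1689 higher and 1426 lower genes, and scaling by library size alone turned the balance to 894 higher and 2138 lower and the median to -0.15. Marker genes of skin cell types could not be looked up by name in this table, so the tissue label was not checked.

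Of the 5 members, 1 was called lower in burned skin, 0 were called higher and 4 did not pass the threshold. The called gene was the receptor. A count of 1 in 5, or 20%, is close to the 21.9% of all genes, so the count by itself sets these genes apart from nothing. Their median log2 fold change was -0.15. The individual genes differed more than the count shows. The point estimates put Egfr and Ereg below control, Hbegf and Areg above it and Tgfa near it.

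Egfr, the receptor, fell in burned skin. It had 223, 175, 559 and 452 counts in the burn libraries (replicates 1 to 4 in order, as everywhere below) and 1313, 2036, 1286 and 1716 in the control libraries. In CPM (read counts scaled to library size, with TMM factors), the burn libraries stood at 19.4, 11.6, 29.3 and 27.2 and the control libraries at 51.2, 70.5, 63.5 and 61.4. The highest burn library was thus well under the lowest control library, and the groups did not overlap, as was the case in either direction for 31.0% of all genes and for 15.6% in this direction. Mean abundance went from 61.7 ± 8.00 CPM in control to 21.9 ± 8.09 CPM in burn (SD, n = 4). The fitted log2 fold change was -1.49 (SE 0.28, edgeR adjusted p = 0.0104), a level 2.82-fold lower with a 95% interval of 1.81 to 4.39. Only 4.52% of genes had a more negative change. Without burn replicate 3 the log2 fold change was -1.67 (edgeR adjusted p = 0.00637), and without burn replicate 2 it was -1.29 (edgeR adjusted p = 0.00693).

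In whole tissue, fewer cells that make a transcript and less transcript per cell cannot be told apart, and this holds for each gene here. The spread of Egfr was also wider after the burn, at 0.61 log2 units (SD) against 0.19 in control. Over all genes the median SD was 0.52 in burn and 0.25 in control, so both values lie near those of other genes.

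**Figure D1:**
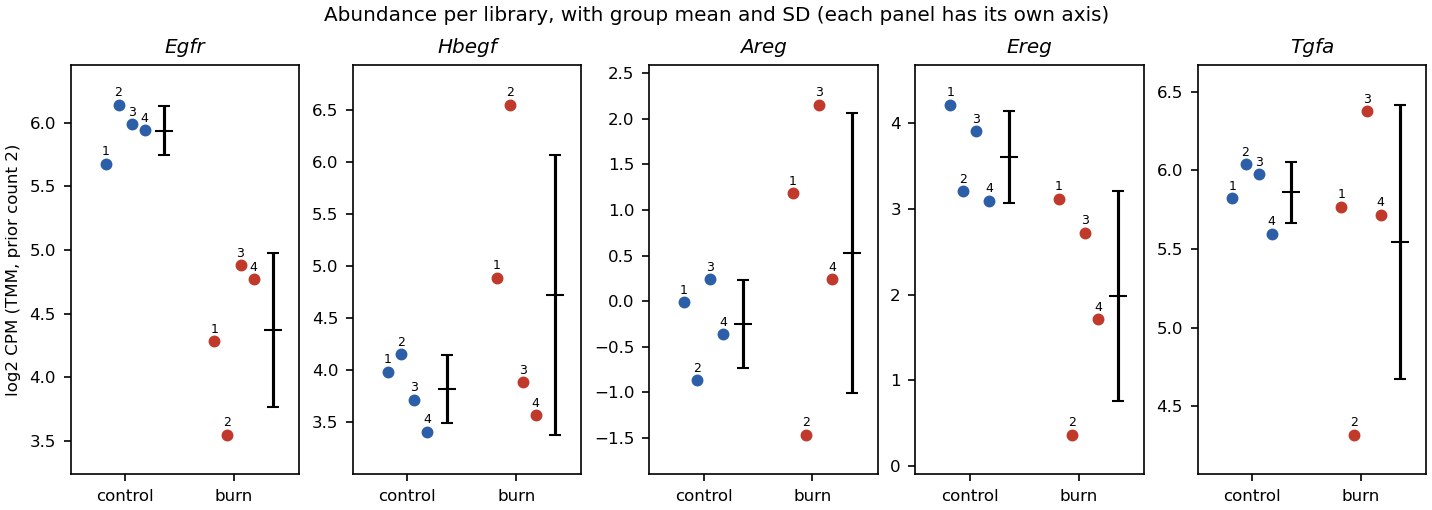
Abundance of the receptor and the 4 ligands in log2 CPM (vertical axis, TMM scaling, prior count 2), with 1 point per library, blue for control and red for burn, the replicate number above each point and the group mean with its SD (n = 4) to the right. The burn points of Egfr all lie below the control points, while the other 4 genes overlap, and burn replicate 2 is the lowest burn library for every gene except Hbegf, where it is the highest.

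Hbegf, which encodes heparin-binding EGF-like growth factor, had an upward estimate that came from an uneven burn group and was not called. Its CPM was 15.7, 17.7, 13.0 and 10.5 in the control libraries and 29.5, 93.5, 14.7 and 11.7 in the burn libraries. Burn replicates 1 and 2 were above every control, and burn replicates 3 and 4 were within the control range. The 1412 counts of burn replicate 2 made up most of the 2227 counts in the burn group, where the 4 control libraries together had 1474. The log2 fold change was 1.39 with a 95% interval of 0.001 to 2.78, unadjusted for multiple testing (SE 0.61, edgeR adjusted p = 0.132). Burn replicate 2 set most of this size, since without it the log2 fold change was 0.38 (edgeR adjusted p = 0.429). Without burn replicate 3 it was 1.65 (edgeR adjusted p = 0.0702), and by limma-voom 0.87 (adjusted p = 0.310).

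Areg, the gene of amphiregulin, was the scarcest of the 5 in reads, with 130 counts over the burn libraries and 77 over the controls. The burn libraries held 25, 4, 83 and 18 counts and the control libraries 23, 13, 22 and 19. In CPM these were 2.17, 0.265, 4.36 and 1.08 in burn against 0.896, 0.450, 1.09 and 0.680 in control. Burn replicates 1 and 3 lay above all controls, burn replicate 2 below all of them and burn replicate 4 among them. The 4 counts of burn replicate 2, 0.213 CPM before TMM scaling, have an exact 95% Poisson interval of 0.0582 to 0.547 CPM, which covers counting error only. The log2 fold change was 1.35 with a 95% interval of -0.31 to 3.00 (SE 0.73, edgeR adjusted p = 0.210). It was 0.57 without burn replicate 3 (edgeR adjusted p = 0.535) and 1.71 without burn replicate 2 (edgeR adjusted p = 0.0566), and limma-voom gave 0.90 (adjusted p = 0.442).

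Ereg, the gene of epiregulin, was estimated at a lower level in burn but was not called. The burn libraries held 99, 18, 124 and 53 counts and the control libraries 474, 264, 301 and 236. The corresponding levels were 8.60, 1.19, 6.51 and 3.19 CPM in burn and 18.5, 9.14, 14.9 and 8.45 CPM in control. The groups overlapped by a narrow margin, with burn replicate 1 just above control replicate 4 and the other 3 burn libraries below every control. This overlap depended on the TMM factors. By library size alone the highest burn library (replicate 3, 7.79 CPM) was below the lowest control (replicate 4, 8.83 CPM). The log2 fold change was -1.39 with a 95% interval of -2.63 to -0.14 (SE 0.55, edgeR adjusted p = 0.100). The DESeq2 Wald test gave -1.39 and called it (DESeq2 adjusted p = 0.0437, the lowest over 15 alternatives, with 0.226 the highest). Without burn replicate 3 the edgeR estimate was -1.58 (adjusted p = 0.0898), and without burn replicate 2 it was -1.07 (edgeR adjusted p = 0.0897). Leaving out 1 library at a time gave -1.80 to -1.07.

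Tgfa, the gene of TGF-alpha, had similar mean levels in both groups. Its CPM was 54.4, 19.9, 83.0 and 52.5 in the burn libraries and 56.5, 65.7, 62.9 and 48.3 in the control libraries. Burn replicate 2 was below every control, burn replicate 3 above every control and the other 2 within their range. The log2 fold change was -0.15 with a 95% interval of -0.97 to 0.66 (SE 0.36, edgeR adjusted p = 0.787). A change of up to 1.96-fold lower or 1.58-fold higher lies within that interval, so the test does not show that the levels were the same. Without burn replicate 3 the estimate was -0.47 (edgeR adjusted p = 0.310), and without burn replicate 2 it was 0.12 (edgeR adjusted p = 0.702).

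**Figure D2:**
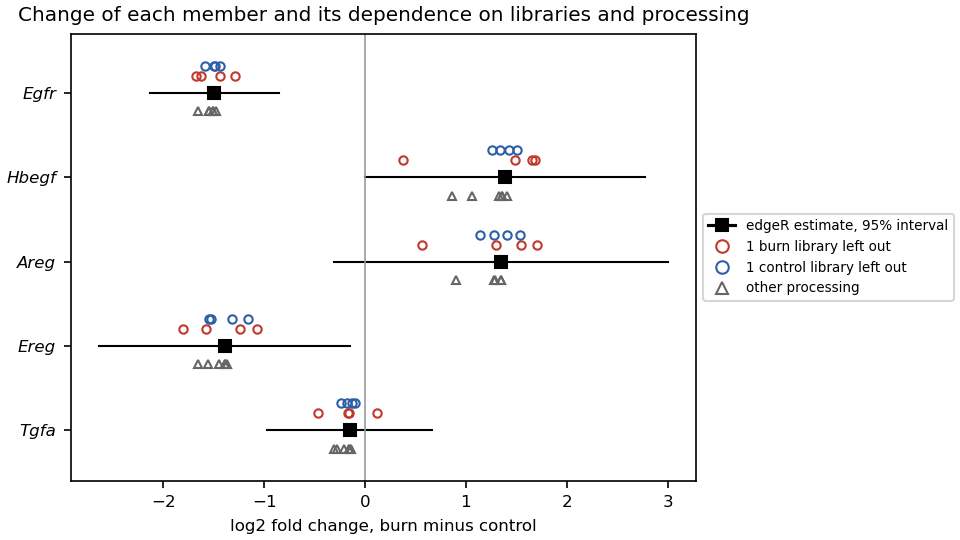
Log2 fold change, burn minus control (horizontal axis), for each of the 5 genes, with the edgeR estimate as a square and its 95% interval as a line, open circles for refits without 1 burn (red) or 1 control (blue) library and triangles for other processing. Egfr stays between -1.67 and -1.29 throughout, whereas Hbegf ranges from 0.38 to 1.68 and Areg from 0.57 to 1.71, with the lowest value of each coming from a refit without a burn library.

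The burn libraries differed from one another in a pattern that several members shared. Burn replicate 2 was the lowest of the 4 burn libraries for Egfr, Areg, Ereg and Tgfa, at -0.82, -1.99, -1.62 and -1.23 log2 units from the burn mean. It was the highest for Hbegf, 1.83 log2 units above that mean. Over all genes tested, 25.8% were lowest and 33.7% highest in burn replicate 2. Burn replicate 3 was the highest for Egfr, Areg and Tgfa, and 32.8% of genes were highest there. Between the lowest and the highest burn library the CPM differed 2.53-fold for Egfr, 4.18-fold for Tgfa, 7.21-fold for Ereg, 7.97-fold for Hbegf and 16.4-fold for Areg. The corresponding ratios among controls were 1.38, 1.36, 2.19, 1.68 and 2.41. The SD of Hbegf among burn libraries, 1.34 log2 units, was larger than that of 88.4% of genes, and for Areg, at 1.54, the share was 91.8%. These shares are not matched for abundance. Only 8.1% of genes were less abundant than Areg, so counting error adds more to its spread than to that of most genes.

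The balance of ligand to receptor was compared within each library, as the log2 CPM of a ligand minus that of Egfr. Library scaling cancels in it except for a small effect through the prior count, and transcript length cancels when burn is set against control. For Tgfa there were 2.81, 1.71, 2.83 and 1.93 reads per read of Egfr in the burn libraries and 1.10, 0.931, 0.989 and 0.787 in the control libraries. All 4 burn libraries were above all 4 controls. The log2 difference from Egfr rose by 1.26 (SE 0.32, limma adjusted p = 0.00439), or 2.39-fold with a 95% interval of 1.48 to 3.84. The rise was 1.15 without burn replicate 3 (limma adjusted p = 0.00800).

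For Hbegf there were 1.52, 8.07, 0.501 and 0.431 reads per Egfr read in burn and 0.308, 0.251, 0.205 and 0.171 in control. Again every burn library was above every control, including burn replicates 3 and 4, in which Hbegf itself was within the control range. The log2 difference from Egfr rose by 2.47 (SE 0.74, limma adjusted p = 0.0107), or 5.56-fold with a 95% interval of 1.83 to 16.9. It was 1.59 without burn replicate 2 (limma adjusted p = 0.00793) and 2.92 without burn replicate 3 (limma adjusted p = 0.000227). Group values were 0.35 ± 1.94 in burn and -2.12 ± 0.36 in control (SD, n = 4). The SE, interval and adjusted p are moderated by limma towards the spread of all other genes relative to Egfr. From these SDs alone the SE would be larger and the interval wider.

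For Areg there were 0.112, 0.0229, 0.148 and 0.0398 reads per Egfr read in burn and 0.0175, 0.00639, 0.0171 and 0.0111 in control. The groups did not overlap here either, but the margin was narrow. The lowest burn value, 0.0229 in replicate 2, rests on 4 Areg reads, and the highest control value was 0.0175. Counting error on 4 reads could by itself close this gap, which the prior count of 2 widens on the log2 scale. The log2 difference from Egfr rose by 2.35 (SE 0.67, limma adjusted p = 0.00843), or 5.09-fold with a 95% interval of 1.86 to 13.9, and by 1.97 without burn replicate 3 (limma adjusted p = 0.00899).

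Ereg was the only ligand not called relative to the receptor. It had 0.444, 0.103, 0.222 and 0.117 reads per Egfr read in burn and 0.361, 0.130, 0.234 and 0.138 in control, and the groups overlapped. The log2 difference from Egfr moved by -0.05 (SE 0.54, limma adjusted p = 0.931), with a 95% interval of -1.22 to 1.11, or 0.429-fold to 2.16-fold. The estimate was -0.13 without burn replicate 3 (limma adjusted p = 0.817).

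These comparisons rest on a receptor that fell, and most transcripts were higher relative to it. The same limma test called 69.1% of all other genes higher in burn relative to Egfr and 0.204% lower, and for 62.4% all burn libraries were above all controls. A count of 3 of 4 ligands is therefore near the background, and it does not set the ligands apart. All these differences also share the error of Egfr. The rise of Tgfa relative to Egfr was larger than that of only 35.8% of genes. The corresponding shares were 87.6% for Hbegf, 84.5% for Areg and 4.85% for Ereg. A two-sided exact permutation test of the difference from Egfr over the 70 divisions of the libraries gave p = 0.0286, the smallest this design allows, for Hbegf, Areg and Tgfa, and p = 0.886 for Ereg, without adjustment for the 4 comparisons.

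**Figure D3:**
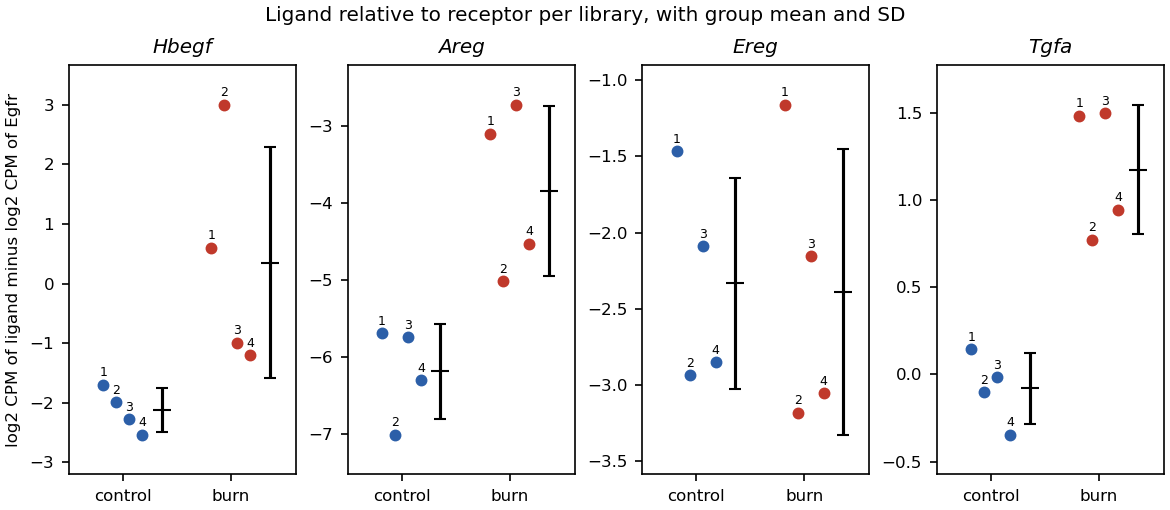
Log2 CPM of each ligand minus log2 CPM of Egfr (vertical axis), with 1 point per library, blue for control and red for burn, the replicate number above each point and the group mean with its SD (n = 4) to the right. The burn libraries of Hbegf, Areg and Tgfa all lie above the controls, and those of Ereg overlap them.

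The mix of the 4 ligands was also described as the share of their summed reads, which is not corrected for transcript length and so compares libraries, not genes. In control the reads were 68.0% ± 4.34 Tgfa, 16.5% ± 2.11 Hbegf, 14.7% ± 4.51 Ereg and 0.912% ± 0.299 Areg (SD, n = 4). Among controls Hbegf lay between 14.2% and 19.1% and Tgfa between 61.7% and 71.1%, while Ereg varied more, from 9.83% to 20.2%, values whose exact 95% binomial intervals do not overlap. In burn replicate 2, Hbegf took 81.4% of 1734 ligand reads (exact 95% binomial interval 79.5% to 83.2%) and Tgfa 17.3%. In burn replicate 1 the share of Hbegf was 31.2%, and in burn replicates 3 and 4 it was 13.5% and 17.1%. The share of Ereg was 9.08%, 1.04%, 5.99% and 4.66% in the burn libraries, and the interval of the highest of these, 7.44% to 10.9%, overlaps that of the lowest control. A share of a sum falls when another ligand takes more of it, and set against Tgfa alone, as log2 CPM of Ereg minus that of Tgfa, the burn and control libraries overlapped (-3.56 ± 0.63 in burn and -2.25 ± 0.53 in control, SD, n = 4).

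**Figure D4:**
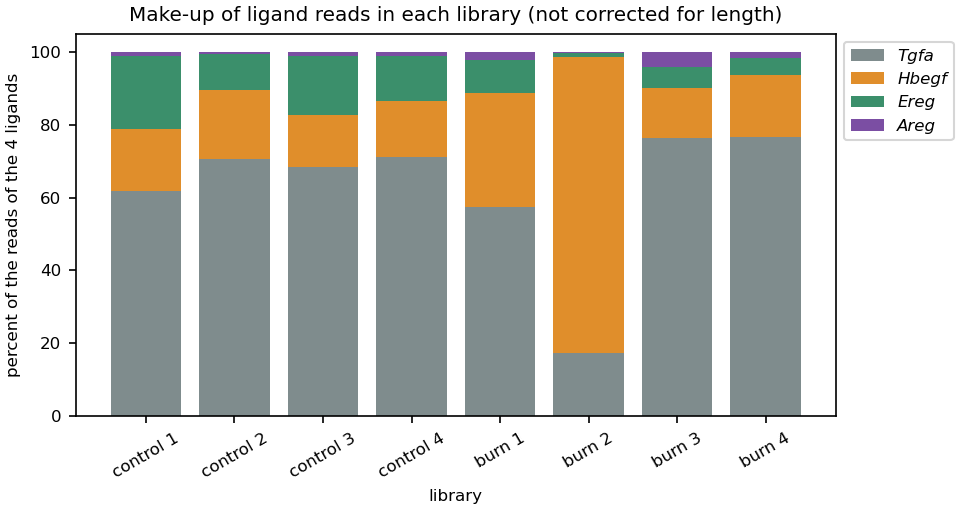
Percent of the summed reads of the 4 ligands (vertical axis, from 0) taken by each ligand in each library, controls at the left and burn libraries at the right, not corrected for transcript length. Hbegf fills 81.4% of burn replicate 2, and the Ereg band runs from 9.83% to 20.2% among controls and from 1.04% to 9.08% among burn libraries.

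Areg and Ereg, neighbours on the chromosome, were compared with each other after their values had been seen. There were 0.253, 0.222, 0.669 and 0.340 Areg reads per Ereg read in burn and 0.0485, 0.0492, 0.0731 and 0.0805 in control. Every burn library was above every control. The log2 difference, Areg minus Ereg, was -1.45 ± 0.62 in burn and -3.86 ± 0.36 in control (SD, n = 4). It was higher by 2.40 in burn (SE 1.01) but just missed the threshold (limma adjusted p = 0.0538). That SE is moderated by limma towards the spread of all other genes relative to Ereg, so it does not follow from the group SDs alone. The two-sided exact permutation test of this difference gave p = 0.0286, the smallest the design allows, for a pair chosen after the values were seen. Relative to Ereg, 29.9% of all other genes were called higher in burn, and for 35.2% the groups did not overlap in that direction. Leaving out burn replicate 3 gave 2.11 (limma adjusted p = 0.0657). Without burn replicate 1 or without burn replicate 2 the difference passed (limma adjusted p = 0.0291 and 0.0177), while over all 11 alternatives the adjusted p ranged from 0.0177 to 0.171. The separation was not particular to these neighbours. Hbegf minus Ereg, in log2 CPM, was 2.74 ± 2.31 in burn and 0.21 ± 0.55 in control (SD, n = 4), also without overlap. That difference was higher by 2.53 in burn. All remaining ligand pairs overlapped between the groups.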

How the data were processed

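RNA sequencing libraries from 4 burned and 4 control sites were analysed from 1 deposited table of whole-number read counts per Ensembl gene, not normalised, with 1 column per library. Build Rnor_5.0 and the tools HTSeq 0.5.4p3, TopHat2 2.0.9, limma, edgeR and R 3.0.1 are listed in the submitters' processing notes. What each did, the annotation, the strand setting and any batch are not stated there, and overlapping or antisense genes cannot be separated. Groups follow the treatment label. Replicate numbers follow accession order and pair nothing. No 2 libraries of a group were a repeat deposit, the smallest chi-square per degree of freedom being 26.7.

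Counts were tested in R 4.3.3 with edgeR 4.0.16 (TMM, default filter, robust quasi-likelihood fit, group as the only term, all 8 libraries, two-sided). A standard error is the log2 fold change divided by the square root of F. Log2 CPM used a prior count of 2. Log2 CPM minus Egfr was tested with limma 3.58.1 (trended eBayes) over the other 14239 genes. In this test standard errors are moderated towards the spread of all genes tested, so they differ from those that the group SDs alone would give. Both scripts were run on simulated counts with known changes, as a check of the code and not of calibration in these data. Alternatives were median-ratio factors, library size alone, no filter, 1 CPM in 4 libraries, DESeq2 1.42.0, limma-voom, a prior count of 0.5 and leaving out each library. Leaving out burn replicates 2 and 3 together was chosen after seeing the data. The members and lists were chosen with earlier results of these data known. The rule for named genes took all 5 members, the other EGF family ligands, neuregulins and ERBB receptors, up to 4 called genes of each further pathway list, and the genes with the most similar profiles. The reference held 47357 rat genes and 0 Ensembl rat identifiers, so the pathway and cell type lists were not analysed here. At a limit of 3 counts, a count of 0 allows 0.219 CPM at the lowest depth and 0.112 CPM at the highest. Intervals cover counting error only where they are called exact.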

Additional observations from a re-analysis of the deposited data

How the results depend on the processing

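Egfr was called lower under all 15 alternatives run, at a log2 fold change of -1.67 to -1.29 (adjusted p 3.76e-05 to 0.0397 over edgeR, DESeq2 and limma-voom). Hbegf (15 alternatives) and Areg (14) stayed above 0 and uncalled, with adjusted p of 0.0657 to 0.429 and 0.0566 to 0.535. Areg did not pass a filter of 1 CPM in 4 libraries, so that setting gave no value. Ereg was called by DESeq2 alone, at -1.39 (adjusted p 0.0437), and not under the other 14. Tgfa, never called, ranged from -0.47 to 0.12 when 1 library was left out, turning positive without burn replicate 2. The difference Ereg minus Egfr, near 0, ranged from -0.47 to 0.24 when 1 library was left out and was 0.22 without burn replicates 2 and 3. The differences of Hbegf, Areg and Tgfa from Egfr kept their direction and call wherever they were refitted with a test (adjusted p at most 0.0339). Of all genes, library size alone called 894 higher where TMM called 1689, and relative to the shifted median of all genes Egfr was then at -1.50 and Hbegf at 1.21. DESeq2 gave 2203 lower genes. Leaving out 1 library gave 673 to 2314 higher and 546 to 1929 lower, with fewer samples in each fit, and both counts moved by over 1.5 times without burn replicate 1 or any 1 control. For the remaining changes the cause was not tested. No paired analysis was possible because the labels number no replicates and tie no burned paw to its control paw. Depth limits Areg most.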

Other observations

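Genes with profiles most like those of the members were sought by the root mean square difference over the 8 libraries, in log2 units, between values centred on the control mean. The count table pairs no names with identifiers, so few are given. Because they were picked for likeness over these same libraries, a change like that of the member follows from the choice. Their adjusted p-values are description and no separate evidence. Nearest to Egfr were ENSRNOG00000011151, at 0.110, which fell by 1.56 on the log2 scale (SE 0.28, edgeR adjusted p = 0.00917), and ENSRNOG00000048511, at 0.151, which fell by 1.37 (SE 0.35, edgeR adjusted p = 0.0256). Nearest to Hbegf was ENSRNOG00000011474, at 0.264, with a log2 fold change of 1.38 (edgeR adjusted p = 0.0938). Nearest to Areg was ENSRNOG00000026344, at 0.187, with a log2 fold change of 1.36 (edgeR adjusted p = 0.206). For Tgfa the nearest gene was at 0.0813, and for Ereg none was closer than 0.408.

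Among the members, Egfr and Ereg were the closest pair, at 0.714, although 979 of 12565 other genes with a mean of at least 1 log2 CPM were closer to Egfr than Ereg was. From the side of Ereg, 109 genes were closer than Egfr. The most distant pair was Hbegf and Ereg, at 2.31.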
